A study of Homo sapiens with 4 samples.

Results

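The chaperones of the cytosol, their cochaperones and the TRiC chaperonin were examined as a set of 41 genes, all of them found among the 58735 genes of the tables by matching Ensembl IDs to GENCODE 29 symbols. The set holds 2 heat shock factors, 8 heat-inducible chaperones, 7 constitutive chaperones, 4 mitochondrial chaperones, 4 J-domain cochaperones, 8 other cochaperones and the 8 subunits of TRiC. The set is not purely cytosolic, since HSPA9, HSPD1, HSPE1 and DNAJA3 act in mitochondria, HSPA13 is found in microsomes, and HSPB11 is a subunit of the intraflagellar transport machinery. RNA was sequenced from HT8, a human cell line whose labels give colon cancer as its tissue. There were 2 libraries labelled PPDPF knockdown and named HT8-cas1, and 2 control libraries named HT8. The sources used here give neither the way PPDPF was to be reduced nor whether the libraries came from separate cultures. The spread behind each p-value is therefore that between these libraries only, which may be technical.

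Chaperones bind unfolded or partly folded proteins and keep them from aggregating. HSP70 proteins take up client proteins with the help of J-domain proteins and nucleotide exchange factors, and HSP90 proteins complete the folding of kinases and steroid receptors together with cochaperones. TRiC is a double ring of related subunits that folds actin and tubulin. Under proteotoxic stress the transcription factor HSF1 binds heat shock elements, inverted repeats of the letters GAA, and raises the transcription of the inducible members. Many tumour cells are known to keep HSF1 active without heat.

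The mRNA of the targeted gene did not go down. PPDPF had 280.5 and 283 FPKM in the libraries labelled knockdown, against 237 and 266 FPKM in control (fold change 1.12, limma adjusted p = 0.0940), so each rise or fall below is of the libraries labelled knockdown relative to control. Whether the labels were exchanged, or PPDPF was reduced without a fall of its mRNA, was not tested. An exchange would turn every direction given here. Reads in genes numbered 17069628 to 17330674 in the libraries labelled knockdown and 17348315 to 19479906 in control. Reads of the mitochondrial genome took 2.19% to 2.35% in the libraries labelled knockdown and 2.76% to 2.87% in control. All 8 epithelial markers were detected, with a summed level of 3133 to 3159 FPKM in the libraries labelled knockdown and 2621 to 2802 FPKM in control, a sum made up mostly of the keratins KRT8, KRT18 and KRT19. Of the 8, 4 rose (KRT8, KRT19, VIL1 and LGALS4), CDH1 fell (log2 fold change -0.13, limma adjusted p = 0.0377), and CDX2, at a log2 fold change of -0.17, did not pass. Fibroblast, endothelial and leukocyte markers (15 genes) stayed at or below 0.485 FPKM in every library, with 7 of them, PTPRC, CD3E, CDH5 and KDR included, at 0 throughout. The part of mitochondrial RNA or epithelial content in the results below was not tested, and in bulk RNA fewer cells of a type and less RNA per cell cannot be told apart.

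The letters of the heat shock element are shown first because HSF1 is known to bind them. RefSeq start sites (GRCh38.p14) matched 35 of the 41 members, with 49 windows of 250 bases before a start. HSF1, HSPA14, HSPB11, ST13, STUB1 and CCT6A had none. The 2-unit elements searched were GAANNTTC and TTCNNGAA, each of which reads the same on both strands. The 3-unit elements were GAANNTTC followed by NNGAA, and its reverse complement, TTCNNGAA followed by NNTTC. A 3-unit match always contains 2-unit matches. A 2-unit element was present in 11.6% of the 35116 windows of all genes, and in 15 of the 49 member windows, those of 15 members. A 3-unit element was present in 0.441% of all windows, and in 6 of the 49 member windows, those of 6 members. These 6 are printed below 5′ to 3′ on the strand of the gene with the element in capitals (overlapping elements joined), beside HSPB1 and the HSPA1A and HSPA1B pair, whose windows held a 2-unit element. The HSPB1 stretch ends at the annotated start of the gene.
HSPB1, chr7:76302423-76302543, plus strand: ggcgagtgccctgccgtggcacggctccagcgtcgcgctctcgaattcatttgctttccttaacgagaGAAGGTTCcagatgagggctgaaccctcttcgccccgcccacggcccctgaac
HSPA1A, chr6:31815429-31815452, plus strand: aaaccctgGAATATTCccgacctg
HSPA1B, chr6:31827625-31827648, plus strand: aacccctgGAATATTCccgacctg
HSP90AA1, chr14:102087112-102087140, minus strand: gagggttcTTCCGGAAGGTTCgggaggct
HSPA8 distal, chr11:123062346-123062374, minus strand: gcgagcttGAAAGTTCCAGAAcgctgcgg
HSPA8 proximal, chr11:123062171-123062199, minus strand: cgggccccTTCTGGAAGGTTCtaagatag
DNAJB6, chr7:157336865-157336893, plus strand: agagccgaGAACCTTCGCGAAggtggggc
HSP90AB1 distal, chr6:44247770-44247798, plus strand: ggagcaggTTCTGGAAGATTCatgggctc
HSP90AB1 proximal, chr6:44247823-44247851, plus strand: tgagattgTTCTGGAAGCTTCtggattct
HSPD1, chr2:197500062-197500090, minus strand: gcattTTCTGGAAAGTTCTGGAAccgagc
CHORDC1, chr11:90223084-90223112, minus strand: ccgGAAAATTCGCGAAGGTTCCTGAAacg
Of the 6 members with a 3-unit element, HSP90AA1, HSPA8 and DNAJB6 rose in the libraries labelled knockdown. HSP90AB1, HSPD1 and CHORDC1 did not pass the test. The small rise of HSPA8 was called in 5 of the 12 other fits described below. Of the 15 members with a 2-unit element, 7 rose and 8 did not pass, the TRiC subunits CCT2 and TCP1 among them. Over all tested genes 16.8% rose, and over the tested members 32.5%. The windows of HSPH1, BAG3, STIP1, CDC37 and CCT5, which rose, held neither element. A match of letters is a description of the window and not a measured binding site.

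The comparison of the libraries labelled knockdown with control was fitted over 12777 genes with a mean of at least 1 FPKM, on log2(FPKM + 1), a scale that understates the change of low genes. The fit used limma with Benjamini-Hochberg adjustment, 2-sided, and rose and fell are used where the adjusted p was under 0.05. The test covered 40 of the 41 members. HSPA2, an HSP70 protein best known from the testis, lay under the filter with 0.411 and 0.316 FPKM in the libraries labelled knockdown and 0.384 and 0.379 FPKM in control. Among the 40 members 13 rose and 1 fell, where 16.8% of all tested genes rose, 13% fell and 29.9% did either. The members that rose were 32.5% of those tested. Both libraries labelled knockdown lay above both controls for 27 members, against 35.9% of all tested genes, and below both controls for 7 members, against 33.8% of all tested genes. Most chaperones are abundant, and the most abundant genes were called higher more often than all tested genes. How often they were called lower was not counted. Among the tenth of tested genes with the highest mean FPKM (from 36.1 FPKM), 29.7% rose, and 9 of the 24 members in that class rose, which is 37.5%. The median log2 fold change was 0.09 over the tested members and 0.00 over all tested genes, and the median size of a change was 0.10 for the members and 0.15 for all genes. Together the members took 1.55% and 1.54% of the reads in the libraries labelled knockdown and 1.43% and 1.39% in control.

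The counts depended on the fit. Leaving out a library leaves 1 library in its group and fewer residual degrees of freedom. Fewer of all genes were then called, whichever library it was, so a lost call need not come from that library. The log2 fold change of HSPA1B, 0.30 with all libraries, was 0.23 without knockdown replicate 1 and 0.34 without control replicate 2. Between 7 and 15 rose over all fits, and 7 of the 13 (HSF1, HSPB1, HSPH1, HSP90AA1, BAG3, DNAJB6 and CCT5) and the fallen HSPB11 were called in each of the 12 other fits. Quantile normalization gave 11 risen and 3 fallen members, and limma-voom on recovered reads gave 15 and 5. Among the 12 other fits, median-of-ratios scaling could hardly change a call, since its factor was 1.0029 in each library.

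**Figure D1:**
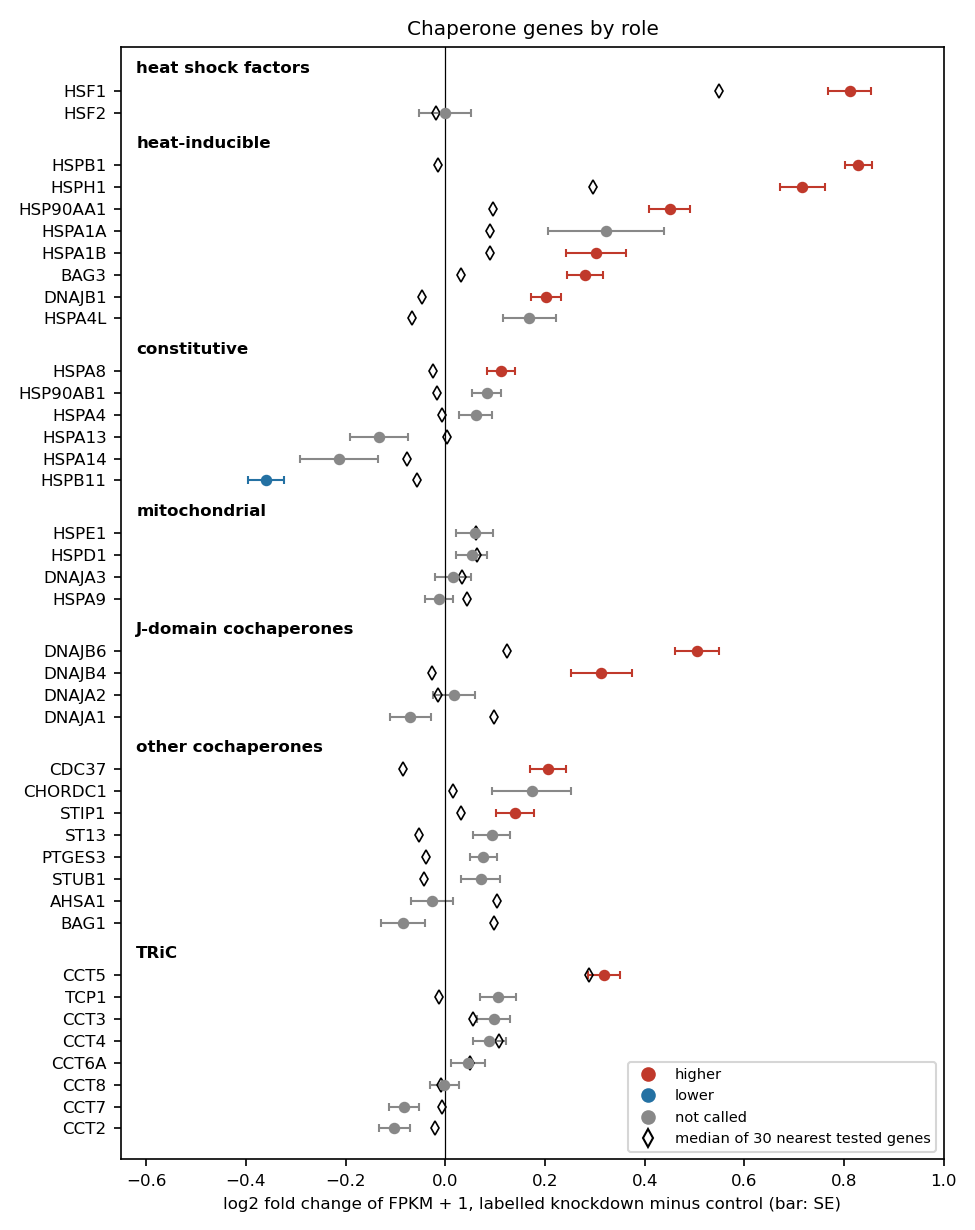
Log2 fold change of FPKM + 1 (x axis, labelled knockdown minus control) of the 40 tested members, grouped by role and sorted within each role. Circles are members with their standard error, coloured by call (adjusted p under 0.05), and open diamonds are the median of the 30 tested genes nearest on the chromosome. All 8 heat-inducible genes lie above 0, while HSF1, HSPH1 and CCT5 are the members whose diamonds also lie far to the right, at 0.55, 0.30 and 0.29.

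HSF1, the regulator of the heat shock response, rose, and its relative HSF2 showed no change that passed the test. HSF1 (ENSG00000185122), which spans 144291591 to 144314722 of chromosome 8 in GRCh38, measured 22.0 and 22.9 FPKM in the libraries labelled knockdown, against 12.1 and 12.6 FPKM in control. The groups lay well apart, 1.75-fold (log2 fold change 0.81, SE 0.04, limma adjusted p = 0.00107). The surroundings of HSF1 were also higher. Of the 30 tested genes nearest to it, 24 rose and 1 fell, their median log2 fold change was 0.55, and 27 of the 30 had a smaller log2 fold change than HSF1. The part of this shift in the rise of HSF1 was not tested. HSF2, which forms mixed trimers with HSF1, had 7.21 and 6.94 FPKM in the libraries labelled knockdown and 6.92 and 7.23 FPKM in control, and the groups overlapped.

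The 8 members placed in the heat-inducible role were higher. Of 8 tested, 6 rose and 0 fell, where 16.8% of all tested genes rose. The median log2 fold change of the role was 0.31, with 0.00 for all tested genes. The members were chosen with earlier results of these data known, so no test was made of the role. HSPD1, HSPE1 and CHORDC1, also known as heat-inducible genes or HSF1 targets, were placed in other roles and did not pass. For each of the 8, both libraries labelled knockdown lay above both controls, which was the case for 35.9% of all tested genes. It also held for 6 of 8 other cochaperones and 5 of 8 TRiC subunits. Among constitutive, mitochondrial and J-domain members it held for 3 of 6, 2 of 4 and 2 of 4. The summed level of the 8 heat-inducible genes was 799 to 809 FPKM in the libraries labelled knockdown and 548 to 565 FPKM in control. This sum was made up mostly of HSP90AA1 and HSPB1.

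HSPB1, the small heat shock protein HSP27 that holds unfolded proteins without ATP, changed most. HSPB1 (ENSG00000106211, chromosome 7, 76302544 to 76304295) had 230.5 and 232 FPKM in the libraries labelled knockdown, against 129 and 130.6 FPKM in control. In each group the replicates differed by far less than the groups did, and the fold change was 1.78 (log2 fold change 0.83, SE 0.03, limma adjusted p = 0.000597). Its chromosomal surroundings were not shifted, since the 30 nearest tested genes had a median log2 fold change of -0.01 and all 30 lay below HSPB1. HSPH1, a large HSP70 relative that serves as nucleotide exchange factor, had 50.1 and 49.2 FPKM in the libraries labelled knockdown and 31.0 and 28.8 FPKM in control. Its fold change was 1.64 (log2 fold change 0.72, SE 0.05, limma adjusted p = 0.00135). HSPH1 lies on chromosome 13, where 18 of the 30 nearest tested genes rose and 0 fell, with a median log2 fold change of 0.30, and 28 of the 30 lay below HSPH1. The part of that shift was not tested.

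HSP90AA1, the inducible cytosolic HSP90, had 384 and 381 FPKM in the libraries labelled knockdown, against 289.7 and 269.8 FPKM in control. The groups did not overlap, and the fold change was 1.37 (log2 fold change 0.45, SE 0.04, limma adjusted p = 0.00270). Its 30 nearest tested genes had a median log2 fold change of 0.10, with 3 that rose and 3 that fell. BAG3, the HSP70 cochaperone of selective autophagy, had 24.3 and 23.7 FPKM in the libraries labelled knockdown and 19.4 and 19.8 FPKM in control (fold change 1.21, limma adjusted p = 0.00659). DNAJB1, the main heat-inducible J-domain partner of HSP70, had 57.9 and 57.0 FPKM in the libraries labelled knockdown and 49.8 and 49.7 FPKM in control (fold change 1.15, limma adjusted p = 0.00946). Leaving out knockdown replicate 1 ended the call (limma adjusted p = 0.0570). HSPA4L, an HSP70 relative of the HSPH1 type, had 6.60 and 6.34 FPKM in the libraries labelled knockdown and 5.58 and 5.71 FPKM in control, and did not reach the threshold (fold change 1.12, limma adjusted p = 0.0677).

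The inducible HSP70 genes HSPA1A and HSPA1B lie side by side on chromosome 6, and their reads are hard to separate. HSPA1A shared 71.3% of its 50-base stretches with HSPA1B. HSPA1B had 51.6 and 46.5 FPKM in the libraries labelled knockdown and 38.5 and 40.5 FPKM in control (fold change 1.23, limma adjusted p = 0.0208). HSPA1A was listed far lower, at 4.18 and 3.21 FPKM in the libraries labelled knockdown and 2.68 and 2.79 FPKM in control, from 179, 135, 117 and 136 reads in that order (limma adjusted p = 0.0983). Neither the gap between the pair nor the split of their reads is certain. Summed, the pair came to 55.8 and 49.7 FPKM in the libraries labelled knockdown and to 41.2 and 43.3 FPKM in control, so both libraries labelled knockdown were higher but differed between themselves more than the controls did. The HSPA1B call was lost without knockdown replicate 1 (limma adjusted p = 0.0631), without control replicate 1 (0.0913), without control replicate 2 (0.0537) and with no filter on low values (0.0906). HSPA1B also shares 35.3% of its 50-base stretches with AL671762.1, which overlaps it.

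**Figure D2:**
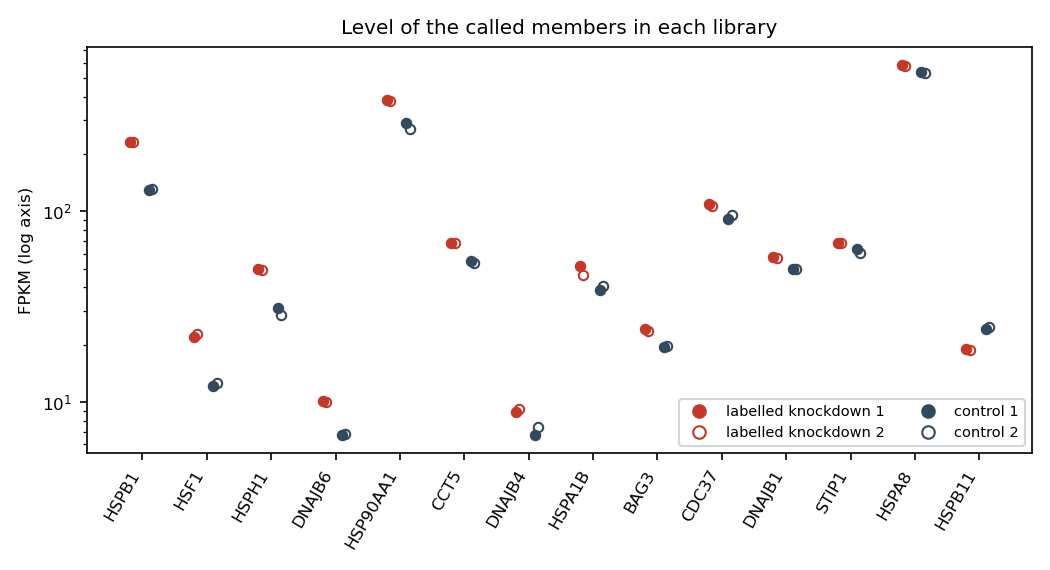
FPKM on a log axis of the 13 members that rose and of HSPB11, which fell, in each of the 4 libraries, sorted by fold change. Red points are the libraries labelled knockdown and dark points the controls, and within no gene do the groups overlap. HSPA8 and HSP90AA1 have the highest FPKM of the 14 and DNAJB4 and DNAJB6 the lowest.

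The constitutive chaperones were divided. Of 6 tested, 1 rose and 1 fell, where 16.8% of all tested genes rose and 13% fell. The median log2 fold change of the 6 was -0.04. HSPA8, the constitutive HSC70, had 583 and 575 FPKM in the libraries labelled knockdown and 541 and 529.8 FPKM in control, a fold change of 1.08 (limma adjusted p = 0.0383). This small rise was lost on removal of any of the 4 libraries (limma adjusted p = 0.0878 to 0.140), and also with no filter, under quantile normalization and with the replicate number as a block (0.0564 to 0.269). HSP90AB1, the constitutive HSP90, had 597 and 600.1 FPKM in the libraries labelled knockdown and 573 and 558 FPKM in control (fold change 1.06, limma adjusted p = 0.0866). HSPA4, an exchange factor of the HSPH1 type, had a fold change of 1.04 (limma adjusted p = 0.221). HSPB11, also called IFT25, had 18.9 and 18.8 FPKM in the libraries labelled knockdown and 24.3 and 24.7 FPKM in control, and fell to 0.779 of control (limma adjusted p = 0.00320). It is the only member that fell in this fit, and it is known for transport in cilia more than for folding. HSPA13 had a fold change of 0.912 and HSPA14, a ribosome-associated HSP70, of 0.863 (limma adjusted p = 0.146 and 0.101), and both passed as lower with limma-voom on recovered reads. HSPA14 has a second Ensembl ID at the same locus, whose log2 fold change was -0.14 (limma adjusted p = 0.182).

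For 4 pairs, which leave out HSPB1, BAG3 and HSPA4L, an inducible gene was also set against a constitutive relative in the same library, which removes any scaling of a library as a whole. The ratio of HSP90AA1 to HSP90AB1 was 0.642 and 0.635 in the libraries labelled knockdown, against 0.506 and 0.484 in control. Of the summed FPKM of the 2 HSP90 genes, HSP90AA1 thus held 39.1% and 38.9% in the libraries labelled knockdown and 33.6% and 32.6% in control. The ratio of HSPH1 to HSPA4 was 0.910 and 0.911 in the libraries labelled knockdown, against 0.584 and 0.558 in control, and this gap was the widest of the 4. For HSPA1A plus HSPA1B to HSPA8 it was 0.0957 and 0.0864 in the libraries labelled knockdown and 0.0761 and 0.0818 in control. For DNAJB1 to DNAJA2 it was 2.22 and 2.06 in the libraries labelled knockdown and 1.90 and 1.85 in control. In all 4 pairs the groups did not overlap, and each had an exact permutation p of 0.333 (2-sided), which is the smallest that 2 libraries against 2 can give. The differences were 0.37, 0.67, 0.21 and 0.19 on the log2 scale, against pooled SDs between replicates of 0.03, 0.03, 0.09 and 0.06.

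**Figure D3:**
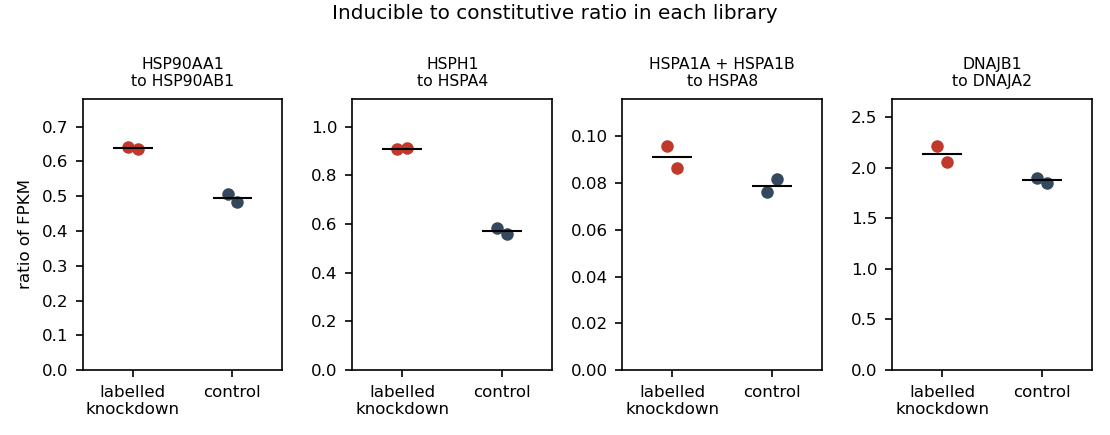
Ratio of FPKM of an inducible to a constitutive relative in each library (points, n = 2 per group) with the group mean (line), each axis starting at 0. The libraries labelled knockdown lie above the controls in all 4 panels, with HSPH1 to HSPA4 at 0.910 and 0.911 against 0.584 and 0.558.

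No mitochondrial member passed the test, where 16.8% of all tested genes rose and 13% fell. Of 4 tested, 0 rose and 0 fell by limma, 0 had an unadjusted p under 0.05 and 0 were called with limma-voom, and their median log2 fold change was 0.03. HSPD1, the mitochondrial chaperonin HSP60, had 231 and 224 FPKM in the libraries labelled knockdown and 222 and 217 FPKM in control (fold change 1.04). HSPE1, its lid HSP10, had 22.5 and 22.7 FPKM in the libraries labelled knockdown and 21.4 and 22.0 FPKM in control (fold change 1.04). HSPA9, the matrix HSP70, and its J-domain partner DNAJA3 had fold changes of 0.991 and 1.01. The limma adjusted p of these 4 lay between 0.259 and 0.784. HSPD1 and HSPE1 are classical HSF1 targets that share a bidirectional promoter, and the 3-unit element of HSPD1 printed above lies in it.

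Among the J-domain cochaperones, which stimulate the ATPase of HSP70, 2 of 4 rose and 0 fell, at a median log2 fold change of 0.17. Over all tested genes 16.8% rose and 13% fell. DNAJB6, which holds back aggregation of polyglutamine proteins, had 10.1 and 9.96 FPKM in the libraries labelled knockdown and 6.76 and 6.78 FPKM in control. Its fold change was 1.42 (log2 fold change 0.51, SE 0.04, limma adjusted p = 0.00252), and the replicates of each group were nearly equal. It lies at the end of chromosome 7, where the 30 nearest tested genes had a median log2 fold change of 0.12 and 27 lay below DNAJB6. DNAJB4, a relative of DNAJB1, had 8.84 and 9.23 FPKM in the libraries labelled knockdown and 6.75 and 7.41 FPKM in control (fold change 1.24, limma adjusted p = 0.0197). The call of DNAJB4 was lost without knockdown replicate 1 or 2 (limma adjusted p = 0.0625 and 0.0867), without control replicate 1 (0.0791) and with no filter (0.0745). DNAJA1 and DNAJA2, the general cytosolic J-domain proteins, had fold changes of 0.953 and 1.01 (limma adjusted p = 0.261 and 0.787).

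Of the other cochaperones 2 of 8 rose and 0 fell, where 16.8% of all tested genes rose and 13% fell. Their median log2 fold change was 0.08. CDC37, which brings protein kinases to HSP90, had 109.6 and 107 FPKM in the libraries labelled knockdown and 91.4 and 95.7 FPKM in control. The fold change of CDC37 was 1.15 (limma adjusted p = 0.0149), and it ran against its surroundings, since its 30 nearest tested genes had a median of -0.08, 9 of them fell, and all 30 lay below CDC37. Its call was lost without knockdown replicate 1 or 2 (limma adjusted p = 0.0752 and 0.0505), without control replicate 1 (0.0620) and with no filter (0.0630). STIP1, the adaptor HOP between HSP70 and HSP90, had 68.2 and 68.5 FPKM in the libraries labelled knockdown and 63.7 and 60.2 FPKM in control. Its rise (log2 fold change 0.14) was at the edge of the threshold (limma adjusted p = 0.0491). It was called in 4 of the 12 other fits, and in none that left out a library (limma adjusted p = 0.0539 to 0.160).

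The remaining 6 cochaperones missed the threshold, at limma adjusted p-values of 0.0931 to 0.670. CHORDC1, an HSP90 cochaperone known to be heat-inducible, had 6.17 and 5.72 FPKM in the libraries labelled knockdown and 5.52 and 4.81 FPKM in control, with a fold change of 1.13. PTGES3, the HSP90 clamp p23, ST13, the HSP70 partner HIP, and STUB1, the ubiquitin ligase CHIP, had fold changes of 1.05, 1.07 and 1.05. AHSA1, the activator of the HSP90 ATPase, and BAG1, an HSP70 exchange factor, had fold changes of 0.982 and 0.943. STUB1 shares 32.4% of its 50-base stretches with the overlapping gene JMJD8, and ST13 shares 25.6% with other genes, ST13P4 leading, so both levels are uncertain.

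The TRiC subunits stayed close to control, with CCT5 as the exception. Of 8 tested, 1 rose and 0 fell, where 16.8% of all tested genes rose and 13% fell. Their median log2 fold change was 0.07. Their summed level was 705 to 716 FPKM in the libraries labelled knockdown and 686 to 693 FPKM in control. CCT5 (chromosome 5, 10249921 to 10266412) had 68.3 and 68.0 FPKM in the libraries labelled knockdown and 55.2 and 53.6 FPKM in control (fold change 1.25, log2 fold change 0.32, limma adjusted p = 0.00334). CCT5 lies in a stretch of chromosome 5 where 18 of the 30 nearest tested genes rose and 1 fell. Their median log2 fold change was 0.29, and 17 of the 30 lay below CCT5, so its change was close to the middle of its surroundings. The part of that shift was not tested. CCT5 also shares 28.2% of its 50-base stretches with the overlapping gene AC012640.4, so some of its reads cannot be assigned with certainty.

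The other 7 subunits lay between fold changes of 0.931 (CCT2) and 1.08 (TCP1), with a limma adjusted p from 0.0632 to 0.974. TCP1 had 58.1 and 60.9 FPKM in the libraries labelled knockdown and 55.3 and 55.2 FPKM in control, and CCT2 had 61.0 and 62.2 FPKM in the libraries labelled knockdown and 65.7 and 66.8 FPKM in control. CCT3, CCT4 and CCT6A had fold changes of 1.07, 1.06 and 1.03. CCT7 and CCT8 had fold changes of 0.944 and 0.999. CCT2 and CCT7 passed as lower under quantile normalization (limma adjusted p = 0.0178 and 0.0457) and with limma-voom (0.00547 and 0.00855). Each TRiC ring holds a single copy of each subunit. FPKM was unequal between the subunits in every library, from TCP1 or CCT5 as the lowest to CCT7 as the highest. FPKM divides by the length of all annotated exons, 2830 bases for CCT4 and 5839 for CCT5, so this order depends on the annotation. By reads CCT5 lay above CCT4 in every library. CCT5 had 6878 and 6731 reads in the libraries labelled knockdown and 5672 and 6151 in control. CCT4 had 5162 and 5221, and 4948 and 5683. CCT7 held 20.4% and 20.3% of the summed TRiC FPKM in the libraries labelled knockdown, and 22.4% and 21.9% in control. CCT5 held 9.68% and 9.49% in the libraries labelled knockdown, and 7.97% and 7.81% in control. The order of the subunits by mean FPKM over the 4 libraries was CCT7, CCT4, CCT3, CCT6A, CCT8, CCT2, CCT5 and TCP1, where CCT4 and CCT3 overlapped in their ranges over the libraries, as did CCT5 with both CCT2 and TCP1.

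**Figure D4:**
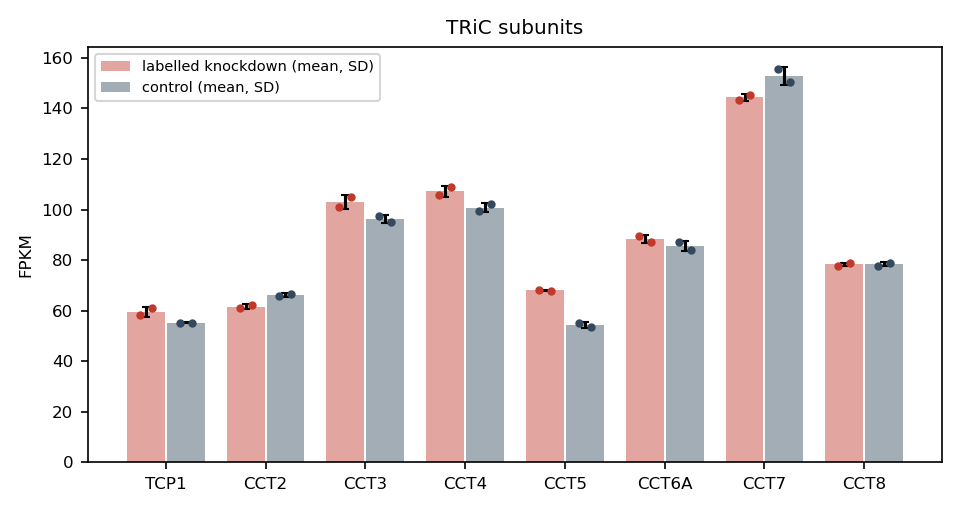
FPKM of the 8 TRiC subunits, with bars for the group mean, error bars for the SD (n = 2 libraries per group) and points for the libraries, labelled knockdown in red and control in grey. CCT5 shows the widest gap between the groups, at 68.3 and 68.0 against 55.2 and 53.6 FPKM, and CCT7 has the highest FPKM in each library.

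Further genes of the folding network were counted in the same fit, where 16.8% of all tested genes rose and 13% fell. Among 14 other known HSF1 targets 11 were tested, of which 3 rose and 1 fell. SQSTM1, the autophagy receptor p62, had 111 and 107 FPKM in the libraries labelled knockdown and 80.1 and 80.2 FPKM in control (fold change 1.36, limma adjusted p = 0.00179). The ubiquitin gene UBB and IER5, an activator of HSF1, rose 1.18-fold and 1.23-fold (limma adjusted p = 0.00911 and 0.0118). UBB lost its call with no filter (0.0560), and IER5 without knockdown replicate 1 (0.0625) or control replicate 1 (0.0522). FKBP4, the HSP90 immunophilin FKBP52, fell instead, with 23.9 and 23.1 FPKM in the libraries labelled knockdown and 32.3 and 29.5 FPKM in control (0.768 of control, limma adjusted p = 0.00800). HSPA6, the strictly inducible HSP70, had 0.0489 and 0.0497 FPKM in the libraries labelled knockdown and 0.0480 and 0.0429 FPKM in control. The small heat shock proteins HSPB8 and CRYAB were likewise at or below 0.206 FPKM in every library.

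Of 28 tested HSP90 and HSP70 cochaperones outside the set, 7 rose and 2 fell, at a median log2 fold change of 0.08. Shares over all tested genes were 16.8% and 13%. The chromosomal neighbours of genes outside the set were not examined, so the part of shifted stretches in these counts was not tested. DNAJC5, the cysteine string protein, DNAJB2, a neuronal J-domain protein, and DNAJC2, a ribosome-associated J-domain protein, rose 1.31-fold, 1.41-fold and 1.35-fold (limma adjusted p = 0.00252, 0.00398 and 0.00657). NUDC, an HSP90 cochaperone of nuclear migration, fell to 0.860 of control (limma adjusted p = 0.00771). Of 14 prefoldin and TRiC partner genes 4 rose and 0 fell. The rises of TBCA, a tubulin folding cofactor, TXNDC9, a TRiC-binding thioredoxin protein, and the prefoldin subunits PFDN2 and PFDN1 were 1.26, 1.14, 1.09 and 1.11-fold (limma adjusted p = 0.0229 to 0.0344). None of these 4 calls held with no filter (0.0558 to 0.0974) or without knockdown replicate 1 or 2 (0.0768 to 0.141). Of 11 tested mitochondrial chaperones and proteases outside the set, 0 rose and 1 fell at a median log2 fold change of -0.10. LONP1, the matrix protease, had 50.7 and 48.6 FPKM in the libraries labelled knockdown and 64.3 and 61.8 FPKM in control (0.791 of control, limma adjusted p = 0.00469).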

How the data were processed

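RNA of 4 HT8 libraries, 2 labelled PPDPF knockdown and 2 control by their genotype label, was extracted with Trizol and sequenced by a commercial provider, per the labels' protocols. HISAT2 2.0.5 and hg18 are named as tool and build in the submitters' processing notes. Values are gene-level FPKM as deposited by the authors. The sources used here do not give counter, strand setting or filters. All 58735 gene IDs matched GENCODE 29, whose GRCh38 coordinates are given. FPKM times exon length gave whole reads for 100% of values within 0.01 of a read. The authors' divisors differed from total reads in genes by -0.664% to 1.37%. The median-of-ratios factor of the deposited FPKM was 1.0029 in each library, so a scaling of that kind was already in the values.

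The fit was limma-trend (limma 3.58.1, R 4.3.3; 2 residual degrees of freedom) on log2(FPKM + 1), for genes averaging 1 FPKM or more. The members and lists were chosen with earlier results of these data known. All members are reported, and up to 4 called genes with the smallest p per list. Where a symbol had 2 IDs, that of the current name table was used. Neighbours were the 30 tested genes nearest on the chromosome, and shared sequence was counted as 50-base stretches of GENCODE transcripts. The libraries of a group differed by more than sampling noise (chi-square per gene 2.38 for labelled knockdown and 2.51 for control). Alternatives covered the filter, pseudocount, scaling, limma-voom on recovered reads, a replicate block, leaving out single libraries, and the threshold. The fit was tested on simulated data. Tables and figures used Python 3.11.15, pandas 2.3.3, numpy 2.4.6 and matplotlib 3.10.9.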

Additional observations from a re-analysis of the deposited data

How the results depend on the processing

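Of the 40 tested members 35 kept their sign in every other fit that held them (HSPA1A lay under the filter of 5 FPKM). The filters and the replicate block leave a log2 fold change as it is. Median-of-ratios scaling leaves it nearly so, since its factors were equal. The sign could therefore move only in the remaining fits. Members that rose (13) numbered 8 with no filter, 8 at an adjusted p under 0.01 and 7 to 10 with a library left out. Members that fell (1) numbered 2 at a mean FPKM of at least 5, 3 under quantile normalization, 5 with limma-voom and 1 to 2 with a library left out. Restricted to the 37 members whose 30 neighbours had a median under 0.2 in size, a choice made after seeing the data, 10 rose and 1 fell. Over all genes, 1134 rose and 734 fell with no filter, 1141 to 1345 and 775 to 919 with a library left out, and 927 and 589 at an adjusted p under 0.01, and 2709 fell with limma-voom. PPDPF passed as higher at a mean FPKM of at least 5 (log2 fold change 0.16), with limma-voom (0.14) and without control replicate 2 (0.25; 0.081 to 0.25 over left-out libraries).

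Other HSF1 targets that rose numbered 5 at a mean FPKM of at least 5 and 5 with limma-voom, which also gave 2 that fell. Other cochaperones that rose numbered 3 to 5 with a library left out and 3 at an adjusted p under 0.01, and 1 fell with no filter, with the replicate block, with any library left out and at 0.01. TRiC partners that rose numbered 0 with no filter, 2 under quantile normalization, 1 with limma-voom, 1 with the replicate block, 0 to 1 with a library left out and 0 at 0.01, and 1 fell at a mean FPKM of at least 5, under quantile normalization and with limma-voom. Other mitochondrial chaperones gave 1 that rose and 2 that fell at a mean FPKM of at least 5, and 3, 2 and 4 that fell under quantile normalization, scaled to reads outside the mitochondrial genome and with limma-voom. The cause of these shifts was not tested.

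Median log2 fold changes under quantile normalization were 0.38 for the heat shock factors, -0.0766 for the constitutive, -0.0020 for the mitochondrial, 0.0580 for the other cochaperones and 0.0325 for TRiC. With limma-voom they were -0.0639 for the constitutive, 0.0106 for the mitochondrial, 0.0616 for the other cochaperones and 0.0435 for TRiC, and 0.0262 for the mitochondrial scaled to reads outside the mitochondrial genome. With a library left out they ran from 0.25 to 0.42 (heat-inducible), 0.0204 to 0.0326 (mitochondrial) and 0.0503 to 0.0695 (TRiC). Values near 0 changed sign for HSF2 (-0.0281 to 0.0267), DNAJA3 (-0.0023 to 0.0324), DNAJA2 (-0.0219 to 0.0570), AHSA1 (-0.0601 to 0.0079) and CCT8 (-0.0118 to 0.0086) with a library left out. Under quantile normalization and limma-voom they were -0.0203 and -0.0089 for DNAJA3 and -0.0172 and -0.0067 for DNAJA2, and under quantile normalization 0.0071 for CCT8.

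Medians of the 20 nearest genes were 0.60 for HSF1, 0.0713 for HSP90AA1, -0.11 for DNAJB1, -0.0223 for BAG3, -0.0607 for HSPA8, 0.0449 for HSPB11, 0.0011 for DNAJB4, 0.0808 for DNAJB6 and 0.0863 for STIP1. Those of the 50 nearest were 0.57 for HSF1, 0.0356 for HSPA1B, -0.0235 for HSPB11, 0.15 for DNAJB6, 0.0067 for STIP1 and -0.0678 for CDC37. The replicate block gave 11 risen members and 1 fallen. Same-numbered libraries did not deviate together (Pearson r -0.0021 across genes), so the numbers were not treated as pairs. Depth limits HSPA2, which rests on 31 to 43 reads a library.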

Other observations

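HSPD1 and HSPE1 encode the barrel and the lid of the mitochondrial chaperonin, yet HSPE1 was listed at a far lower level per length. The ratio of HSPE1 to HSPD1 in FPKM, added after seeing the data, was 0.0973 and 0.101 in the libraries labelled knockdown and 0.0963 and 0.101 in control. HSPE1 rested on 768 and 762 reads in the libraries labelled knockdown and on 743 and 854 in control. In GENCODE the genes overlap, and HSPE1 shares 17.9% of its 50-base stretches with HSPD1, so its level depends on how such reads were counted, which was not tested.

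The ratio of CCT5 to the mean of the other TRiC subunits, also added after seeing the data, was 0.750 and 0.734 in the libraries labelled knockdown and 0.606 and 0.593 in control. For CCT6A it was 1.02 and 0.969 in the libraries labelled knockdown and 1.00 and 0.977 in control, and the groups overlapped.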
